A study of Homo sapiens with 2 samples.

Results

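Megakaryocyte and platelet genes were examined in K562, an established human leukaemia line that carries the BCR-ABL fusion and can be driven towards the erythroid or the megakaryocyte lineage. The set holds 34 genes chosen by name for their known roles in platelets. Of these, 32 are among the 19775 genes with a probe set of their own on the array. The set was chosen with earlier results of these data known, so its share of calls may not be independent of them. Total RNA of 2 cultures was read on Affymetrix expression arrays, 1 array for each culture. The PML4 culture was K562 infected with a retrovirus for PML4, an isoform of the promyelocytic leukaemia protein that builds PML nuclear bodies. The control culture was K562 infected with the empty retroviral vector pMSCV. Both were under G418 selection for 3 weeks. The labels do not say whether each culture was a pool or 1 clone, or which promoter drove PML4. Neither culture was replicated, so every difference below is one between 2 arrays, without a test or an error between cultures.

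Megakaryocytes are the marrow cells that shed platelets. Platelets stick to damaged vessel walls through the glycoprotein Ib-IX complex and collagen receptors, respond to thrombin, ADP and thromboxane through surface receptors, bind fibrinogen through the integrin made of the ITGA2B and ITGB3 chains, and release stored granule proteins. Tubulin and actomyosin give the platelet its disc shape and its contractile force. K562 cells carry a part of this programme at the progenitor level.

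The values are MAS5 signals, an intensity on a linear scale. A probe set was counted as measured when its signal lay above a floor of 72.4 on at least 1 array, the floor being the median signal of the human probe sets. Lower signals were set to the floor before a ratio was formed, so a ratio with 1 side under the floor is a bound. A gene was called higher or lower at a difference of at least 2-fold, which is 1 on the log2 scale. The floor is not a detection call. As a check on it, 135 probe sets for olfactory receptors, the odour receptors of nasal neurons, were taken as a rough background and lay above it in 6.67% of cases on the PML4 array and 11.1% on the control array, and 95% of their signals were at or below 111.5.

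Of the 34 genes, 32 had a probe set annotated to them alone, with 66 such probe sets in all. In these, 23 genes were measured and 9 were not. The measured share was 71.9%, against 63.4% of all genes with a probe set of their own. Both arrays were above the floor for 17 genes, while 5 genes were above it only with the control vector and 1 only with PML4. Across all genes above the floor on 1 array, 81.3% were so only with the control vector. Of the 23 measured genes, 15 lay above the olfactory receptor level of 111.5 on both arrays, 3 on 1 array, and 5 on neither. FLNA, the actin crosslinker filamin A, was not analysed here. GP1BB, a chain of the glycoprotein Ib-IX complex, had only probe sets that also name SEPTIN5, so no value was assigned to it.

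Among the 23 measured genes, 2 were called higher with PML4, TUBB1 and F2RL3, and 2 were called lower, F2R and TBXAS1. That is 8.70% in each direction. Over all 12541 measured genes, 1.23% were called higher, 3.21% lower and 4.43% in either direction. The calls for F2RL3 and TBXAS1 lay at the threshold itself, at log2 differences of 1.005 and -1.001. The median log2 difference of the set was -0.09, against -0.05 over all genes, with 9 of its genes above 0 and 14 below. Over all genes, 44.7% lay above 0 and 55.3% below. Of the 17 genes above the floor on both arrays, 12 differed by less than 1.5-fold, or 70.6%, against 84.2% of all such genes. Calls over the whole array were most frequent at low signal. In the lowest quartile of mean signal, 2.26% of genes were called higher and 7.24% lower, and 9 genes of the set lay there, F2RL3 and TBXAS1 among them. In the next quartile, with TUBB1, F2R and 4 more genes of the set, the shares were 1.28% and 3.99%. None of the 8 genes of the set in the upper 2 quartiles was called.

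**Figure D1:**
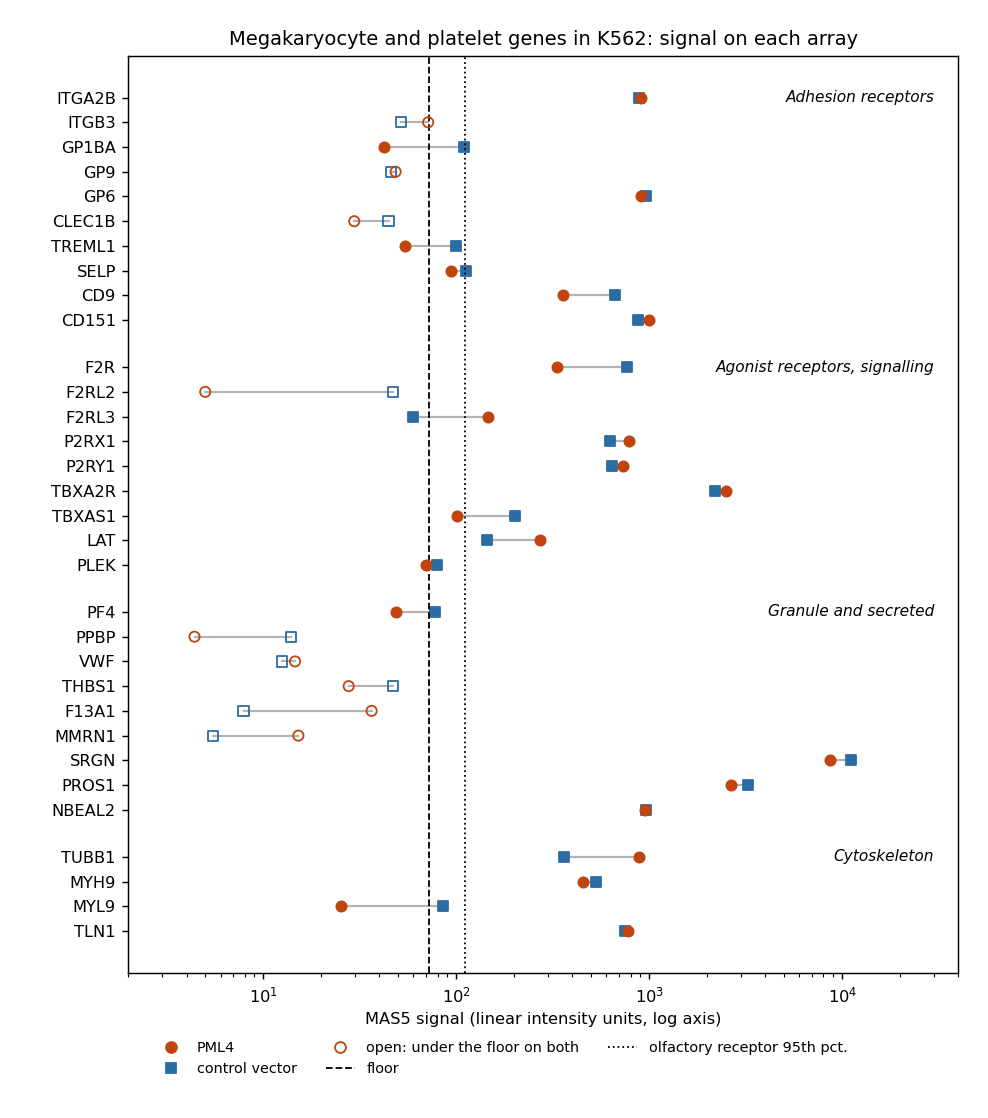
MAS5 signal (log axis) of each gene on the PML4 array (circles) and the control vector array (squares), by role; filled symbols are the probe set that stands for a measured gene, open ones the highest probe set of a gene under the floor on both arrays. The dashed line is the floor of 72.4 and the dotted line the olfactory receptor level of 111.5. The 9 genes with open symbols lie left of the floor on both arrays, TUBB1, F2R, TBXAS1, CD9 and LAT have visible gaps to the right of it, and F2RL3, GP1BA, TREML1, PLEK, PF4 and MYL9 lie across it.

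**Figure D2:**
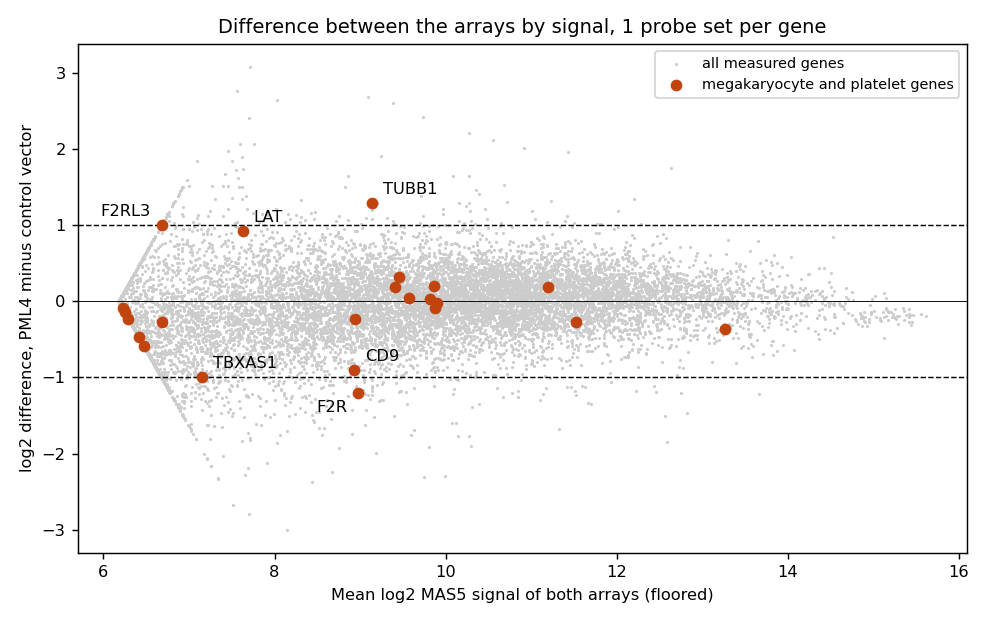
Log2 difference, PML4 minus control vector, against the mean log2 signal of both arrays for 12541 genes (grey) and the 23 measured megakaryocyte and platelet genes (red); dashed lines mark 2-fold. TUBB1 at 1.29 and F2R at -1.20 lie beyond the lines, F2RL3 and TBXAS1 on them, and LAT and CD9 just inside. The slanted edges at the left are genes with 1 array at the floor.

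Of 7 measured adhesion receptors and membrane proteins, none was called, where 4.43% of all measured genes were. ITGA2B, the alpha chain of the platelet fibrinogen receptor, had a signal of 909.4 with PML4 and 888.4 with the control vector in the probe set that stands for it. Its other measured probe sets were at 610.4 and 202.6 with PML4, against 487.5 and 158.4 with the control vector. All 3 were slightly higher with PML4, by 0.03 to 0.36 on the log2 scale. ITGB3, the beta chain that pairs with it, was under the floor in all 7 of its probe sets, the highest being 71.5 with PML4 and 51.7 with the control vector. The integrin was thus measured through its alpha chain alone.

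Of the glycoprotein Ib-IX complex, which binds von Willebrand factor, neither GP1BA nor GP9 was above the floor on both arrays. GP1BA had 42.1 with PML4 and 109.1 with the control vector, which is at least 1.51-fold lower. GP9 was at 48.5 with PML4 and 46.1 with the control vector, under the floor on both. The control signal of GP1BA was itself below the olfactory receptor level.

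GP6, the collagen receptor of platelets, had 911.7 with PML4 and 966.0 with the control vector, a log2 difference of -0.08. CD151, a tetraspanin that associates with integrins, had 997.7 with PML4 and 869.8 with the control vector. CD9, another tetraspanin, had 356.1 with PML4 and 665.9 with the control vector, 1.87-fold lower and just short of a call. The other 2 CD9 probe sets were under the floor on both arrays, so this difference rests on a single probe set.

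SELP, the granule membrane protein P-selectin, had 93.4 with PML4 and 112.9 with the control vector. TREML1, a receptor stored in alpha granules, had 54.0 with PML4 and 100.1 with the control vector, at least 1.38-fold lower. CLEC1B, the podoplanin receptor, was under the floor at 29.6 with PML4 and 44.6 with the control vector. These are signals near background on both arrays.

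Of 8 measured agonist receptors and signalling proteins, 1 was called higher and 2 lower, or 12.5% and 25%. Over all measured genes the shares were 1.23% and 3.21%. The calls of F2RL3 and TBXAS1 lay at the threshold. The thrombin receptors F2R and F2RL3 differed in direction, F2RL3 as a bound. F2R, the main thrombin receptor of human platelets, had 333.1 with PML4 and 764.2 with the control vector, 2.29-fold lower. Its second probe set had 81.6 with PML4 and 167.2 with the control vector, 2.05-fold lower. Both probe sets of F2R therefore lay beyond 2-fold in the same direction, though the PML4 signal of the second lay under the olfactory receptor level. F2RL3, the second signalling thrombin receptor of human platelets, had 145.3 with PML4 and 59.8 with the control vector, at least 2.01-fold higher. It has a single probe set, and its control signal lay under the floor. Its call was lost with the floor at the olfactory receptor level, where the log2 difference was 0.38, and with a pseudocount of 32 in place of a floor, where it was 0.95. F2RL2, a thrombin receptor that acts as a cofactor for F2RL3 on mouse platelets, was under the floor in both of its probe sets, at 5.0 and 2.4 with PML4 and 47.0 and 32.2 with the control vector.

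The thromboxane genes were read as an enzyme and a receptor. TBXAS1, the synthase that makes thromboxane, had 100.6 with PML4 and 201.3 with the control vector, a log2 difference of -1.001. Its second probe set had 71.9 with PML4 and 147.4 with the control vector, at least 2.04-fold lower. Both read lower, and both PML4 signals lay under the olfactory receptor level. The call of TBXAS1 was lost after quantile normalization, at -0.81 on the log2 scale, and after loess centring, at -0.79. TBXA2R, the thromboxane receptor, had 2499.4 with PML4 and 2194.8 with the control vector. Its 4 probe sets ran from -0.22 to 0.57 on the log2 scale, 2 in each direction, so they give the receptor no common direction.

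The purine receptors were above the floor on both arrays and differed little. P2RX1, an ATP-gated channel, had 784.8 with PML4 and 628.5 with the control vector, 1.25-fold higher. P2RY1, an ADP receptor, had 727.3 with PML4 and 637.7 with the control vector, 1.14-fold higher, while its other probe set was under the floor. LAT, the adaptor that carries the signal of the collagen receptor and of the T cell receptor, had 272.8 with PML4 and 143.9 with the control vector, 1.90-fold higher. The second LAT probe set had 121.6 with PML4 and 58.7 with the control vector, at least 1.68-fold higher. LAT would be called after quantile normalization, at 1.08, and after loess centring, at 1.07. PLEK, the protein kinase C substrate pleckstrin, lay at the floor, with 69.6 with PML4 and 79.8 with the control vector.

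Most of the genes for granule cargo were not measured. Of 9 granule and secreted proteins, 4 were measured, or 44.4%, against 63.4% of all genes with a probe set of their own. None was called, where 4.43% of all measured genes were. All 4 had a lower signal with PML4 as deposited, PF4 as a bound, where 55.3% of all measured genes were lower. NBEAL2 was at 0.03 on the log2 scale after centring on the median gene, however, and PF4 at 0.07 after loess centring. SRGN, the proteoglycan serglycin that packs granule proteins, had 8673.7 with PML4 and 11143.3 with the control vector, and its second measured probe set had 3904.8 with PML4 and 4331.3 with the control vector. These are 1.28-fold and 1.11-fold lower. PROS1, the anticoagulant protein S, had 2665.3 with PML4 and 3232.1 with the control vector, 1.21-fold lower. NBEAL2, which alpha-granule formation requires, had 948.5 with PML4 and 962.0 with the control vector. All 3 are also made by cell types other than megakaryocytes.

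The other 6 genes for secreted proteins were near or under the floor, PF4 and PPBP as platelet chemokines and the rest made by other cell types too. PF4, platelet factor 4, had 48.5 with PML4 and 77.2 with the control vector, and PPBP, its neighbour on chromosome 4, had 4.4 with PML4 and 13.9 with the control vector. VWF, von Willebrand factor, did not pass 14.6 with PML4 or 12.5 with the control vector in its 2 probe sets. The 7 probe sets of THBS1, thrombospondin 1, did not pass 27.7 with PML4 and 47.2 with the control vector. F13A1, the A chain of factor XIII, was at 36.4 with PML4 and 7.9 with the control vector, and MMRN1, the factor V binding protein multimerin 1, at 15.2 with PML4 and 5.5 with the control vector. No ratio is given for genes under the floor on both arrays.

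Of 4 measured cytoskeletal genes, TUBB1 was the only call, where 1.23% of all measured genes were called higher. TUBB1, the beta-tubulin of the platelet marginal band, had 885.1 with PML4 and 361.0 with the control vector, 2.45-fold higher. Its other probe set was under the floor, at 52.8 with PML4 and 10.1 with the control vector. MYH9, the heavy chain of nonmuscle myosin IIA, had 451.7 with PML4 and 532.5 with the control vector. TLN1, talin, which activates integrins, had 774.9 with PML4 and 751.1 with the control vector, and its 3 measured probe sets ran from -0.45 to 0.38 on the log2 scale. MYL9, a regulatory myosin light chain, had 25.4 with PML4 and 84.9 with the control vector, at least 1.17-fold lower. MYH9 and TLN1 differed by less than 1.5-fold in the probe sets that stand for them, while for MYL9 only a bound can be given, since its PML4 signal lay under the floor. With a pseudocount of 32 in place of a floor, MYL9 was at -1.03 on the log2 scale and was called lower.

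**Figure D3:**
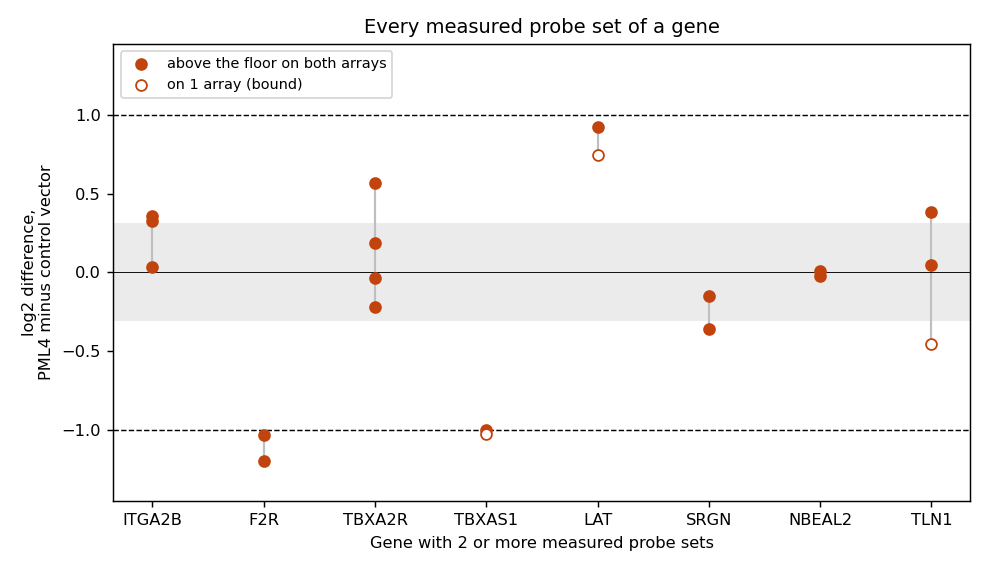
Log2 difference, PML4 minus control vector, of every measured probe set for the 8 genes with 2 or more; open symbols are bounds with 1 array under the floor, dashed lines mark 2-fold, and the grey band is the median gap of 0.30 between probe sets of a gene over the whole array. F2R and TBXAS1 lie at or beyond -1 in all of their probe sets. LAT lies inside the 2-fold line at 0.92 and, as a bound, 0.75, and TBXA2R and TLN1 spread over both sides of 0.

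Probe sets of 1 gene give the only spread these arrays offer. Over 19460 pairs of probe sets in 6143 genes, the median gap between the log2 differences of a pair was 0.30. This is no error between cultures. Of the 17 genes above the floor on both arrays, 10 had a difference smaller than that gap, or 58.8%, against 57.9% of all such genes. Of the 8 genes of the set with 2 or more measured probe sets, all probe sets had the same direction in 5 (ITGA2B, F2R, TBXAS1, LAT and SRGN) and opposite directions in 3 (TBXA2R, NBEAL2 and TLN1). Over all such genes, 51.5% had a common direction.

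Under the other floors and scalings, TUBB1 and F2R stayed beyond 2-fold in 8 of 9 alternatives each. Their exception was the floor at the 75th percentile, a signal of 465.0, where TUBB1 was at 0.93 and F2R at -0.72. Some alternatives could not move a value. The 25th percentile and olfactory receptor floors lay under both signals of TUBB1 and F2R, and left them at 1.29 and -1.20. With 1 measured probe set each, TUBB1 and F2RL3 kept their values under the mean over probe sets and without the endings _x_at and _s_at. F2RL3 passed 2-fold in 6 of the 8 alternatives that measured it, and TBXAS1 in 3 of 8. Quantile normalization and loess centring each gave 3 genes called higher and 1 lower. They also moved the split over all genes, which was 154 higher and 402 lower as deposited, 196 and 281 after quantile normalization, and 201 and 265 after loess centring.

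**Figure D4:**
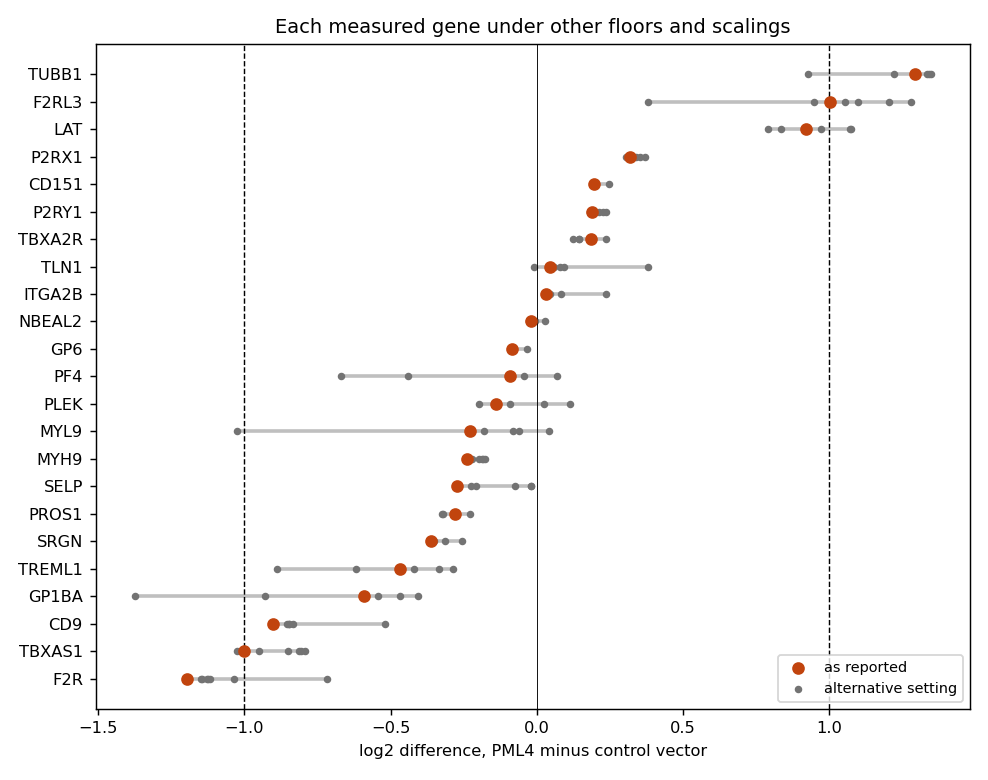
Log2 difference, PML4 minus control vector, of the 23 measured genes as reported (red) and under each alternative floor, scaling or choice of probe sets (grey points, with bars from lowest to highest). TUBB1 keeps to 0.93 or more and F2R to -0.72 or less, and the long bars of F2RL3, MYL9 and GP1BA belong to genes with 1 array under the floor.

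Promoter sequence was compared for the genes called and for ITGA2B, whose promoter is a textbook megakaryocyte promoter with GATA and ETS sites. The sequences are the 250 bases before the annotated start, from RefSeq on GRCh38.p14, which covered 25 of the 34 genes. Capitals mark the letters AGATAA or AGATAG or TGATAA or TGATAG, called GATA here, and CCGGAA or CAGGAA, called ETS here, on either strand. F2R was not among the 25.
TUBB1, chr20:59019179-59019428, plus strand: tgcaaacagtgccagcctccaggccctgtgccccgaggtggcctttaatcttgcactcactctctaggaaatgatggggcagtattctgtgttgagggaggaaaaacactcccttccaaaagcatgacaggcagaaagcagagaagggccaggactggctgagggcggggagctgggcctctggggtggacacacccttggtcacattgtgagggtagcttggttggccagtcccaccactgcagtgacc
F2RL3, chr19:16888749-16888998, plus strand: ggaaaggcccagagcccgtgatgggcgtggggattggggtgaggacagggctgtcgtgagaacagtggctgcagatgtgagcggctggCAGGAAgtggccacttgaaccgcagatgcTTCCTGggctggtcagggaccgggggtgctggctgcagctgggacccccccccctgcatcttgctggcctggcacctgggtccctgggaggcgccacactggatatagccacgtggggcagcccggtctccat
TBXAS1, chr7:139829014-139829263, plus strand: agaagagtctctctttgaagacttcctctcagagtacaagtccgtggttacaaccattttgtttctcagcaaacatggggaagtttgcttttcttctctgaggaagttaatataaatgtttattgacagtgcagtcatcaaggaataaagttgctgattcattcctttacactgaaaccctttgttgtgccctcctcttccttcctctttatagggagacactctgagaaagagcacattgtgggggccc
ITGA2B, chr17:44389650-44389899, minus strand: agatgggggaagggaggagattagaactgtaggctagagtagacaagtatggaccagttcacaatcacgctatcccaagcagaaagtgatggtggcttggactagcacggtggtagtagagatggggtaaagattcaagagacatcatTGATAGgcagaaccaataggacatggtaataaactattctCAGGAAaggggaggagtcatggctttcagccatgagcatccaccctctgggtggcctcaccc

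ITGA2B held a GATA and an ETS match, starting 102 and 62 bases before the start. F2RL3 held 2 ETS matches, at 162 and 133 bases, and no GATA match. TUBB1 and TBXAS1 held neither set of letters in this window. Over the 25 promoters of the set, 32% had a GATA match, 44% an ETS match and 20% both. Over the promoters of 27305 genes the shares were 22.9%, 35.9% and 7.70%. The 5 promoters of the set with both belong to CD9, CLEC1B, ITGA2B, PPBP and PROS1. Of these, CLEC1B and PPBP were under the floor on both arrays, so promoters with both sets of letters belonged to measured and to unmeasured genes.

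Other genes of megakaryocytes and platelets were read from 6 lists of 117 symbols, of which 86 were measured. Of these, 3 were called higher and 2 lower, 3.49% and 2.33%, against 1.23% and 3.21% of all genes. Their median log2 difference was 0.11, against -0.05 over all genes. Granule biogenesis and secretion held 18 measured genes and 1 call. RAB27B, a small GTPase of platelet granule secretion, had 3127.4 with PML4 and 725.1 with the control vector, 4.31-fold higher. Its other measured probe set had 114.6 with PML4 and 46.5 with the control vector, also higher, as a bound. The remaining one was under the floor on both arrays. RAB27A, the paralogue of RAB27B that also serves granule release, had 2796.6 with PML4 and 5356.3 with the control vector, a log2 difference of -0.94 that was not called. RAB27A is named here after its value was seen. SNAP23 and VAMP8, membrane fusion proteins of granule release, were at 8449.8 and 6277.9 with PML4 and at 8561.8 and 6697.1 with the control vector.

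Megakaryocyte regulators were measured in 15 genes, with a median log2 difference of 0.24. The call was SRF, the transcription factor of actin and myosin genes, with 731.8 with PML4 and 362.0 with the control vector, 2.02-fold higher. Its other probe set had 73.6 with PML4 and 73.7 with the control vector, so the call rests on 1 of 2 probe sets. CCND3, cyclin D3, had 10014.1 with PML4 and 7008.7 with the control vector, and STAT5A, a transcription factor of thrombopoietin signalling, 4665.3 with PML4 and 4303.8 with the control vector.

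Of 8 measured other platelet receptors, FCER1G, the chain that signals for GP6, was the only call, with 171.5 with PML4 and 63.3 with the control vector, at least 2.37-fold higher. ITGB1, the integrin beta chain of collagen binding, had 15625.5 with PML4 and 14918.2 with the control vector, and CD63, a granule tetraspanin, 12632.3 with PML4 and 11975.6 with the control vector. Of 9 measured genes of other granule cargo, SPARC, a matrix protein also stored in platelets, had 110.3 with PML4 and 303.6 with the control vector, 2.75-fold lower. TMSB4X and TIMP1 were at 23488.3 and 15349.5 with PML4 and at 24121.5 and 13749.7 with the control vector.

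Platelet signalling proteins and enzymes held 18 measured genes and no call, with 14 higher and 4 lower in signal and a median of 0.21. Over all measured genes, 44.7% were higher and 55.3% lower. That share was not matched for signal, and 17 of the 18 genes lay above the floor on both arrays. RAP1B, the GTPase that switches on platelet integrins, had 18256.8 with PML4 and 14443.0 with the control vector, and GNA13, a G protein of the thrombin and thromboxane receptors, 4916.3 with PML4 and 4623.9 with the control vector. Of 18 measured actin and contractile partners, WAS, an activator of actin branching, had 585.7 with PML4 and 1175.1 with the control vector, 2.01-fold lower. Its other probe set was under the floor. CFL1 and RHOA were at 19284.8 and 16233.2 with PML4 and at 18480.0 and 16598.3 with the control vector.

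Markers of other cell types and the arrays' own checks give the setting of these values. Of 9 megakaryocyte markers with a probe set of their own, 6 were measured and 3 (ITGA2B, GP6 and TUBB1) were above the floor on both arrays. The set is therefore named for its genes and not for a megakaryocyte state of these cells. All 10 erythroid markers with such a probe set were measured, with a summed signal of 81161 with PML4 and 54778 with the control vector, 1 called higher (HBZ), 2 called lower (ALAS2 and EPOR) and a median log2 difference of 0.15. TFRC and HBE1 make up most of the sum, at 31653.7 and 24540.1 with PML4 and at 17625.2 and 18103.9 with the control vector. None of 8 endothelial markers was measured, and their summed signal was 153.8 with PML4 and 238.6 with the control vector. The sum for monocyte markers, 2 of 7 measured, was 3360 with PML4 and 3371 with the control vector, and for fibroblast markers, 3 of 7 measured, 3609 with PML4 and 3708 with the control vector. Most of the first was LYZ, at 3134.6 with PML4 and 3206.4 with the control vector. Most of the second was FN1, at 3177.6 with PML4 and 3076.0 with the control vector. Of 5 T lymphocyte markers 4 were measured, with a summed signal of 5448 with PML4 and 2938 with the control vector, most of it CD3D at 4996.3 with PML4 and 2478.0 with the control vector. CD3D and CD3G were called higher and CD5 lower, and CD3E was at -0.55 on the log2 scale as a bound. The part of these in the values of LAT and other genes shared between lineages was not tested, and in bulk RNA fewer cells of a type and less RNA per cell cannot be told apart. PML itself was read by 9 measured probe sets, 5 higher and 4 lower with PML4, with log2 differences from -2.57 to 2.83. The 2 largest rises were to 698.5 and 1386.8 with PML4, from 98.1 and 216.3 with the control vector. The largest fall was to 156.5 with PML4, from 927.2 with the control vector. The other lower probe sets were at 76.1, 52.0 and 37.8 with PML4, near or under the floor. The 3' to 5' ratio of GAPDH was 1.53 with PML4 and 1.55 with the control vector, and that of ACTB was 2.80 with PML4 and 2.94 with the control vector.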

How the data were processed

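Total RNA of 1 PML4 and 1 control vector culture of K562 was labelled from 6 µg per the labels' protocols. The authors deposited 1 MAS5 signal intensity per probe set, per the submitters' processing notes. No version or setting of MAS5 is given there, and no detection calls were used. With 2% of probe sets trimmed at each end, the deposited intensities averaged 500.1 on the PML4 array and 500.0 on the control array. The arrays did not match at low signal. The median human probe set was at 64.0 on the PML4 array and 80.6 on the control array, with 48.1% and 51.9% of probe sets above the floor. Everything else was computed here with python 3.11.15, pandas 2.3.3 and statsmodels 0.14.6.

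Of 54613 human probe sets, 41091 were annotated to 1 gene by GEO's platform annotation, which names no build, and 1801 to several. Genes were named only from the first kind. A gene took its measured probe set of highest mean log2 signal. The log2 difference is PML4 minus control vector. With 1 array per group, no statistical test was made. The code for the calls was tested on simulated data. That simulation placed effects well beyond the threshold in genes well above the floor, with little noise. It checked the code only and does not bear on calls near the floor or at the threshold. The depth of an array has no counterpart in counts, and the number of arrays limits the precision.

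The genes, lists and settings were chosen with earlier results of these data known. All 34 genes are named, as are genes called in the other lists (at most 4 per list) and the 2 of highest mean signal in each. The floor was also set at the 25th and the 75th percentile and at the 95th percentile of olfactory receptor probe sets. Other alternatives were a pseudocount of 32 without a floor, quantile normalization, loess centring (span 0.4), centring on the median gene, the mean over probe sets, probe sets without the endings _x_at and _s_at only, and calls at 1.5-fold and 3-fold. GATA and ETS letters were searched in the first listed promoter of each gene.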

Additional observations from a re-analysis of the deposited data

How the results depend on the processing

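No paired analysis was possible because each group holds 1 array, and for the same reason no replicate could be left out. With the floor at the 25th percentile, 27 genes of the set lay above it on both arrays, 4 were called lower (F2R, F2RL2, GP1BA and TBXAS1) and 3 higher (F13A1, F2RL3 and TUBB1), with 11.4% of all genes called lower and 3.79% higher. With the floor at the 75th percentile, 14 were measured, 10 on both arrays, with 0 called higher and 0 lower, and 0.629% and 0.792% of all genes called. At the olfactory receptor level 1 was called higher (TUBB1) and 1 lower (F2R). With a pseudocount of 32, 1 was called higher (TUBB1), and MYL9 took the place of TBXAS1 among the 2 lower ones. Quantile normalization, loess centring and centring on the median gene each left 1 lower call, F2R. Calls at 1.5-fold gave 4 lower and 3 higher genes, against 11.8% and 5.70% of all genes, and calls at 3-fold gave 0 and 0, against 0.470% and 0.215%. The mean over probe sets and using only probe sets without the endings _x_at and _s_at gave the same 4 calls. The median difference of the set stayed between -0.14 and 0.01. Of 185 values of single genes under alternatives, 174 lay within the probe set gap of 0.30 of the reported value, and no called gene changed sign. Many of these values were fixed in advance. A gene with both signals above another floor keeps its value there. So does a gene with 1 measured probe set under the mean over probe sets. The count therefore does not measure how stable the differences are. Of the 23 measured genes, 6 have 1 array under the floor and so only a bound.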

Other observations

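The 2 probe sets that name GP1BB together with SEPTIN5 differed in opposite directions. The first had 2097.5 with PML4 and 1337.5 with the control vector, 1.57-fold higher, and the other had 308.9 with PML4 and 656.2 with the control vector, 2.12-fold lower. GP1BB and SEPTIN5 are neighbours whose transcripts can read through, and the share of each gene in these signals is not known.

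Genes next to the called ones were read on GRCh38.p14, 3 protein-coding genes on each side. Of 24 such neighbours of TUBB1, F2RL3, F2R and TBXAS1, 15 were measured, none was called higher and 1 was called lower. Over all measured genes, 1.23% were called higher and 3.21% lower. That was CPAMD8, beside F2RL3, with 72.0 with PML4 and 167.5 with the control vector, opposite in direction to F2RL3. The 5 measured neighbours of TUBB1 ran from -0.36 to 0.30 on the log2 scale. F2R lies between F2RL2 and F2RL1, a trypsin receptor of the same family, and neither of these was measured.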
